A study of Mus musculus with 9 samples.

Results

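The 9 genes described here encode proteins that neutrophils carry or respond to, or that mark acute activation of myeloid cells: S100a8, S100a9, Retnlg, Csf3r, Ngp, Camp, Ltf, Lcn2 and Il1b. They were named by symbol, and all 9 matched 1 of the 53465 gene identifiers counted in every library. RNA was sequenced from heart tissue labelled as infarct border zone in NOD-SCID mice, an immunodeficient strain that lacks functional B and T cells, so every group shares that background. The groups were hearts with sham surgery (3 libraries), hearts with coronary artery ligation (3 libraries) and hearts with ligation plus implanted FOXO3-GE-MPCs (3 libraries). No group with control cells was analysed here, so an effect of the FOXO3 modification cannot be told apart from an effect of implanting cells. The labels give neither the age of the mice nor the time after surgery, and they do not say whether a library is 1 animal. The titles and the treatment label of all 3 cell libraries give FOXO3, which was followed here, although another label of replicates 2 and 3 gives a different FOXO gene.

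Neutrophils are short-lived white blood cells that leave the bone marrow in response to granulocyte colony-stimulating factor, whose receptor is Csf3r, and enter injured myocardium early after an infarct. S100a8 and S100a9 encode the subunits of calprotectin, a calcium-binding protein that fills the neutrophil cytosol and, once released, signals through Toll-like receptor 4. Ngp, Camp, Ltf and Lcn2 encode proteins of the secondary granules, which are made in the marrow while the cell matures: neutrophilic granule protein, cathelicidin, lactoferrin and the iron-siderophore-binding lipocalin 2. Retnlg encodes a resistin-like secreted protein of mature mouse neutrophils. Il1b encodes interleukin-1 beta, which monocytes and macrophages also make, and Lcn2 is also induced in cells other than neutrophils.

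In the mouse assembly GRCm38 (the submitters' processing notes name mm10, the same assembly), the GENCODE M21 annotation places S100a8 at chr3:90668978-90670035 on the plus strand. S100a9 follows at chr3:90692632-90695721 on the minus strand, 22596 bases away and with no gene annotated between them. Camp (chr9:109847379-109849617, minus), Ngp (chr9:110419747-110423012, plus) and Ltf (chr9:111019271-111042767, plus) lie within one stretch of chromosome 9, with 29 protein-coding genes between the outer pair. Lcn2 (chr2:32384633-32388252, minus) and Il1b (chr2:129364570-129371139, minus) are far apart on chromosome 2. Retnlg is at chr16:48872621-48874496 and Csf3r at chr4:126024550-126044440, both on the plus strand. All 9 are protein-coding.

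The promoter stretches of S100a8, S100a9 and Ngp are printed because these genes had lower levels after ligation. Each is RefSeq sequence of GRCm38.p6, 5′ to 3′ on the gene's strand, and ends at the last base before the gene's first GENCODE exon. Capitals mark matches to the motif of C/EBP (TTGCNNAA), a factor family of granulocyte development, or of PU.1 (GAGGAA), a myeloid factor, read on both strands.
S100a8, chr3:90668821-90668977, plus strand: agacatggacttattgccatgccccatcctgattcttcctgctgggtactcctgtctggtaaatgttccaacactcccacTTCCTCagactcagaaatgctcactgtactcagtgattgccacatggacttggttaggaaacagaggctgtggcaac
S100a9, chr3:90695722-90695971, minus strand: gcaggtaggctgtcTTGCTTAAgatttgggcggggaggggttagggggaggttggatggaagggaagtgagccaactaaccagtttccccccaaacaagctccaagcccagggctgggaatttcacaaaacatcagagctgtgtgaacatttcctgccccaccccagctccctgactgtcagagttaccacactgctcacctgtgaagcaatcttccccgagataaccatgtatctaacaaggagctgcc
Ngp, chr9:110419558-110419746, plus strand: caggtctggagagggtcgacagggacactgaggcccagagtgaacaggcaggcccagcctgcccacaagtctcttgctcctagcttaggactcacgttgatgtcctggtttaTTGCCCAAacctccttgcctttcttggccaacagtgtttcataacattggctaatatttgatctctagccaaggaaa
S100a8 had a PU.1 match 170 bases before its RefSeq start, S100a9 a C/EBP match 236 bases before it and Ngp a C/EBP match 138 bases before it. Over the RefSeq windows of 250 bases before to 50 after the start, 5 of the 9 genes held a C/EBP match, against 10.8% of all 32851 promoter windows. For PU.1 it was 4 of 9 against 28.3%, for the TATA box (TATAAA) 3 of 9 against 13.6%, and for the NF-kB motif 0 of 9 against 1.20%. A match says only that the letters are present.

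Libraries held 4549268 to 7515052 gene counts, and 1 ligation library was the shallowest. Levels are given as CPM, the gene's count relative to the library total after scaling by TMM factors. A count of 3, taken as the smallest detectable level, was worth 0.374 to 0.638 CPM in a single library and 0.141 to 0.166 CPM over the 3 libraries of a group. Since no label ties libraries to separate animals, the p-values measure only the spread between these libraries, which may be technical. The file headers of sham replicates 1 and 2 share a name stem, as do those of ligation replicates 2 and 3. Their counts differed by more than sampling noise (mean chi-square per gene 3.84 and 2.29), so they are not 1 library deposited again. Whether each stem is 1 heart is not stated. All 9 libraries were used as labelled. Of the 9 genes, S100a8, S100a9, Csf3r and Lcn2 passed edgeR's filter on low counts. The filter asks for 1.48 CPM, which is 10 counts in a library of median depth, in at least 3 libraries. Retnlg, Ngp, Camp, Ltf and Il1b did not pass, and their tests come from a fit without the filter. Adjusted p-values of the 2 fits are not on one footing. For S100a9 after ligation the value was 1.09e-19 without the filter and 7.06e-08 with it (edgeR). For Lcn2 after ligation it was larger without the filter, 0.605 against 0.483 (edgeR).

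The calprotectin subunits S100a8 and S100a9 were highest in sham hearts, about 4-fold lower after ligation and lowest with implanted cells. S100a8 had 90, 85 and 84 counts in the sham libraries, 14, 23 and 38 after ligation and 17, 14 and 10 with cells. Every ligation and cell library was below every sham library. As CPM these were 14.4 ± 1.39 (SD, n = 3) in sham, 3.68 ± 0.934 after ligation and 1.93 ± 0.484 with cells. After ligation S100a8 fell by 1.92 on the log2 scale (SE 0.22, adjusted p 5.62e-07, edgeR quasi-likelihood test), a 3.92-fold difference in mean CPM.

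S100a9 had 119, 112 and 110 counts in sham, 18, 41 and 41 after ligation, and 13, 18 and 12 with cells. As CPM its 3 groups did not overlap, and the order was the same as for its partner. Mean levels were 19.0 ± 1.92, 4.95 ± 1.06 and 2.02 ± 0.413 CPM (SD, n = 3). The fall after ligation was 3.83-fold (log2 fold change -1.90, SE 0.19, adjusted p 7.06e-08, edgeR). With cells S100a9 was lower than in ligation by a further 2.45-fold (-1.31, SE 0.26, adjusted p 0.00191, edgeR). Against sham it was 9.41-fold lower (-3.22, SE 0.22, adjusted p 2.04e-10, edgeR).

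For S100a8 the step from ligation to cells was 1.91-fold (log2 fold change -0.96, SE 0.29, adjusted p 0.0406, edgeR), and the libraries did not overlap in CPM. This call was lost in 10 of 18 alternative fits, in which the adjusted p reached 0.246 while the log2 fold change stayed between -1.15 and -0.71. These included the fits without sham replicate 1 or 3, ligation replicate 2 or 3, or cell replicate 2 or 3, and the smallest fold change came without ligation replicate 3. Against sham, S100a8 was 7.48-fold lower with cells (-2.89, SE 0.24, adjusted p 5.98e-09, edgeR). The falls from sham kept their call in all 18 alternatives for both genes.

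**Figure D1:**
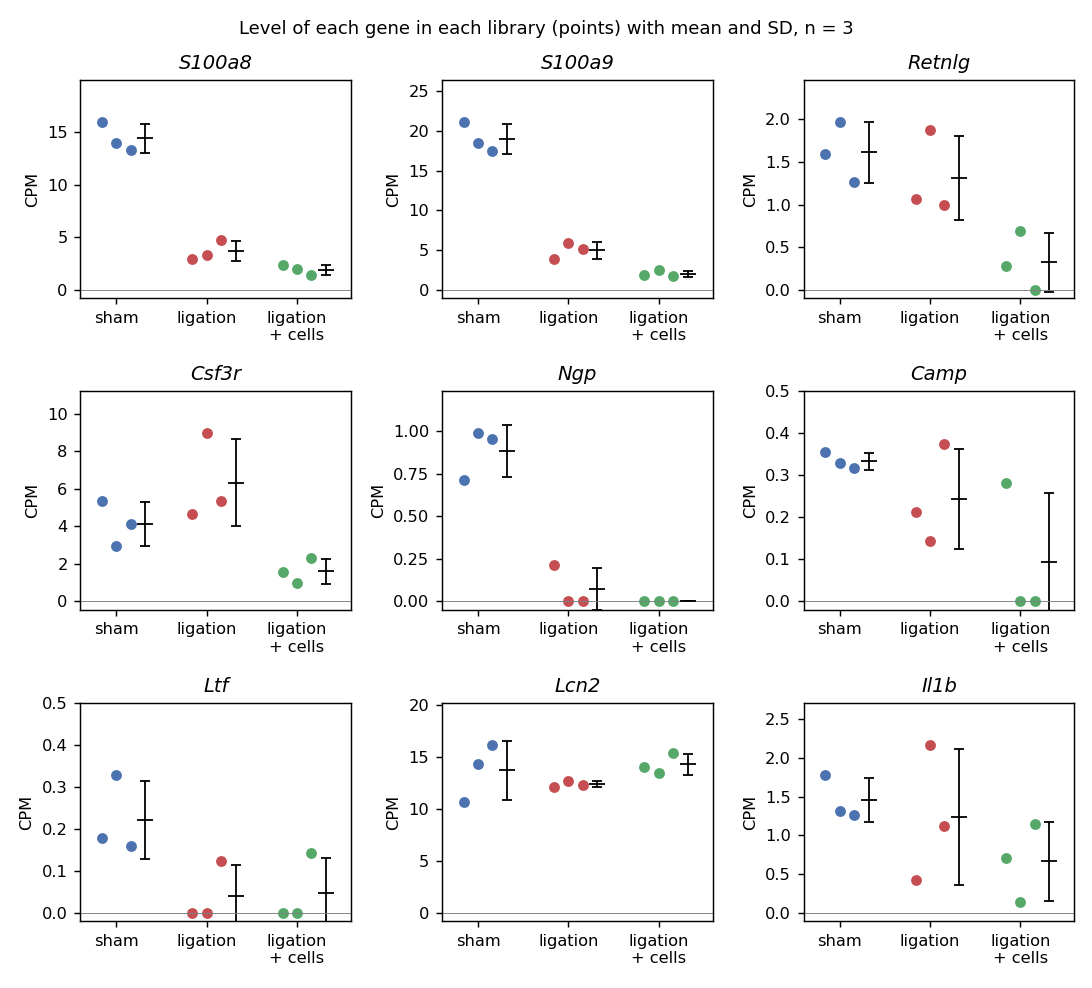
Level of each of the 9 genes in CPM (linear axis from 0) in each library, with sham in blue, ligation in red and ligation plus cells in green. Black marks are the mean and SD of 3 libraries, and bars that would run under 0 are cut off at the panel edge. S100a8 and S100a9 drop from 14.4 and 19.0 CPM in sham to 3.68 and 4.95 after ligation, Csf3r is lowest in the cell group, and Lcn2 stays between 10.7 and 16.2 CPM in all 9 libraries.

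Because the subunits form one complex, their counts were also compared within each library, which needs no scaling between libraries. The sham libraries had 1.32, 1.32 and 1.31 S100a9 counts per S100a8 count. After ligation the ratio was 1.29, 1.78 and 1.08, and with cells it was 0.765, 1.29 and 1.20. The ratio in ligation spanned the sham values (exact permutation p = 1, two-sided, n = 3 against 3). In the 3 cell libraries it was below all sham values (log2 difference -0.32), with p = 0.1, the smallest the exact permutation test allows, and 0.18 after adjustment over 9 such tests. The cell-group ratios rest on 10 to 18 counts per gene and library.

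Csf3r, the receptor through which granulocyte colony-stimulating factor drives neutrophil production and release, followed another order. It had 30, 18 and 26 counts in sham, 22, 62 and 43 after ligation, and 11, 7 and 16 with cells. Ligation replicate 2 was the highest, and the ligation range included part of the sham range. Mean levels were 4.13 ± 1.18, 6.33 ± 2.29 and 1.61 ± 0.667 CPM (SD, n = 3). The difference after ligation was 0.64 on the log2 scale (SE 0.31, adjusted p 0.116, edgeR) and did not pass 0.05. It did pass with library totals in place of TMM factors (0.83, adjusted p 0.0346, edgeR), a scaling that also moved the median of all genes tested to 0.20 after ligation (0.15 for cells against sham).

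With cells Csf3r fell 3.94-fold against ligation (log2 fold change -1.99, SE 0.35, adjusted p 0.000656, edgeR) and 2.57-fold against sham (-1.35, SE 0.38, adjusted p 0.00703, edgeR). All 3 cell libraries were below every sham and ligation library, and both calls held in all 18 alternatives. Of the 31-base stretches of Csf3r transcripts, 23.1% also occur in transcripts of other genes; how many of its reads this touches was not measured.

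The different courses of calprotectin and receptor are visible within single libraries. There were 3, 4.72 and 3.23 S100a8 counts per Csf3r count in sham, 0.636, 0.371 and 0.884 after ligation, and 1.55, 2 and 0.625 with cells. S100a9 gave 3.97, 6.22 and 4.23 per Csf3r count in sham, 0.818, 0.661 and 0.953 after ligation, and 1.18, 2.57 and 0.75 with cells. Both ratios were lower in every ligation library than in every sham library, with log2 differences of -2.59 and -2.55 (exact permutation p = 0.1, the smallest possible, 0.18 adjusted over 9 tests). Between ligation and cells they overlapped (exact permutation p = 0.3 for both).

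**Figure D2:**
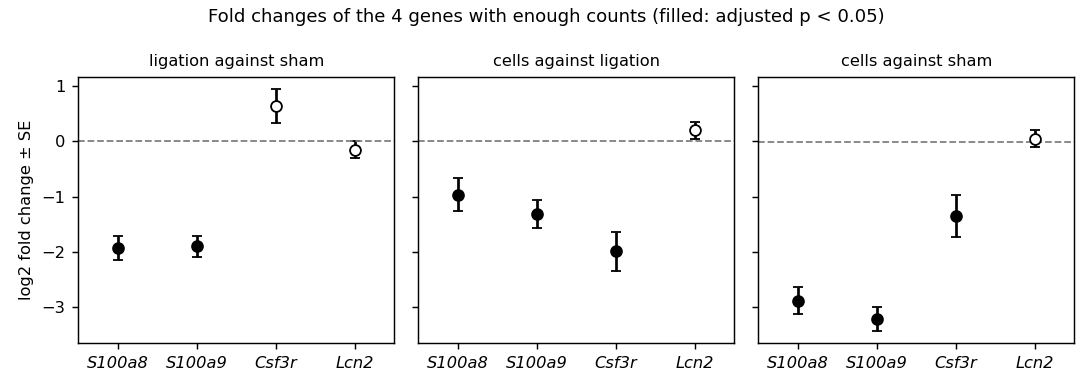
Log2 fold changes with their standard errors for the 4 genes that passed the filter on low counts, in each of the 3 comparisons; filled points have an adjusted p under 0.05 by edgeR and the dashed line is the median of all genes tested. S100a8 and S100a9 are at -1.92 and -1.90 after ligation while Csf3r is at 0.64, and with cells against ligation Csf3r is at -1.99.

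Retnlg, the resistin-like neutrophil protein, had few counts. It had 9, 12 and 8 counts in sham, 5, 13 and 8 after ligation, and 2, 5 and 0 with cells. Sham and ligation overlapped, while each cell library was below both in CPM. The levels were 1.61 ± 0.353, 1.31 ± 0.490 and 0.325 ± 0.348 CPM (SD, n = 3), the last resting on 7 counts in all. Without the filter on low counts, cells against sham gave an adjusted p of 0.00512 (log2 fold change -2.22, SE 0.66, edgeR), which became 0.0736 without cell replicate 3. Without cell replicate 2 the fold change was -3.32. For cells against ligation the adjusted p was 0.0627 (-1.95, SE 0.68, edgeR), and 0.0164 without cell replicate 2. Ligation against sham gave 0.804. Of its 31-base stretches, 5.51% also occur in Retnla.

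Among the secondary granule genes, Ngp was detected in sham and nearly absent elsewhere. It had 4, 6 and 6 counts in sham, 1, 0 and 0 after ligation, and 0 in all 3 cell libraries. That is 0.882 ± 0.150 CPM (SD, n = 3) in sham. Over the pooled libraries, sham had 17.4 times the ligation level, with a 95% counting interval from 2.71 to 731. That ligation level rests on 1 count, under the floor of 3 counts, and at the floor the difference is 5.81-fold. With cells Ngp was 6.29-fold lower than in sham when 3 counts over the group were taken as its level. The 95% counting interval of that difference starts lower, at 4.55-fold. Without the filter on low counts the adjusted p was 0.0272 for ligation and 0.00275 for cells against sham (edgeR). The first was above 0.05 in 6 of 15 alternatives, up to 0.147, which included the fits without sham replicate 2 or 3 and without ligation replicate 2 or 3.

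Camp and Ltf had at most 3 counts in any library. Camp had 2 counts in each sham library, 1, 1 and 3 after ligation, and 2, 0 and 0 with cells. Ltf had 1, 2 and 1 counts in sham, 0, 0 and 1 after ligation, and 0, 0 and 1 with cells. At this depth no difference between groups was detectable for either gene: without the filter their adjusted p-values were 0.488 or more (edgeR).

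Lcn2, the siderophore-binding member of the granule group, was the only one of that group with many counts. It had 60, 87 and 102 counts in sham, 57, 88 and 99 after ligation, and 99, 97 and 107 with cells. As CPM these were 13.7 ± 2.80, 12.4 ± 0.296 and 14.3 ± 1.002 (SD, n = 3). The differences were -0.15 (SE 0.16) after ligation, 0.20 (SE 0.15) for cells against ligation and 0.05 (SE 0.15) for cells against sham on the log2 scale, with adjusted p-values of 0.483, 0.477 and 0.812 (edgeR). The cell libraries all lay above the ligation libraries, by 1.15-fold in mean. Pooled counts put the ratio of ligation to sham between 0.751 and 1.08 (95% counting interval), which does not reach the fall seen for the S100 genes.

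Il1b, the acute myeloid cytokine of the set, had 10, 8 and 8 counts in sham, 2, 15 and 9 after ligation, and 5, 1 and 8 with cells. Ligation replicates 1 and 2 held the lowest and the highest count of their group, and the ligation range covered that of sham. Mean levels were 1.45 ± 0.281, 1.24 ± 0.876 and 0.665 ± 0.507 CPM (SD, n = 3). Without the filter, no comparison passed 0.05, with adjusted p-values of 0.922 for ligation against sham, 0.510 for cells against ligation and 0.201 for cells against sham (edgeR). Its exons overlap those of the antisense gene Il1bos by 25 bases on the opposite strand.

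Levels of different genes were compared as CPM divided by exon length in kilobases. In sham the order was S100a9 (36.4 ± 3.68, SD, n = 3), S100a8 (20.8 ± 2.01), Lcn2 (5.22 ± 1.07), Retnlg (2.72 ± 0.595) and Csf3r (1.15 ± 0.328). Below them came Il1b (0.762 ± 0.147), Ngp (0.722 ± 0.123), Camp (0.440 ± 0.0259) and Ltf (0.0642 ± 0.0270), and the ranges of Csf3r and Il1b overlapped, as did those of Il1b and Ngp. After ligation S100a9 was at 9.49 ± 2.02 and S100a8 at 5.30 ± 1.35, the latter no longer separated from Lcn2 at 4.72 ± 0.113. With cells Lcn2 came first, at 5.44 ± 0.382, above S100a9 at 3.87 ± 0.792 and S100a8 at 2.78 ± 0.698.

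Of the 4 genes that passed the filter, 2 fell and 0 rose after ligation, where 18.0% of all 13825 genes tested fell and 20.1% rose. With cells against ligation 3 of 4 fell and 0 rose, where 5.69% of all genes fell and 4.19% rose. With cells against sham 3 of 4 fell and 0 rose, where 20.0% fell and 21.0% rose. Without the filter 3, 3 and 5 of the 9 genes were called lower, against 9.59%, 3.38% and 10.7% of 25606 genes; Ngp was added after ligation, and Ngp and Retnlg with cells against sham. The CPM ranges of 4, 4 and 8 of the 9 genes lay wholly below those of the reference group in these comparisons, against 14.3%, 9.44% and 16.1% of the genes with a count. The first 4 include Ltf and the 8 include Camp and Ltf, for which no difference was detectable at these counts. The 8 also include Il1b, whose test of cells against sham did not pass (adjusted p 0.201 without the filter, edgeR). The ranges of Camp, Ltf and Il1b counted here touch or overlap in raw counts and separate only after scaling. In cells against ligation this also holds for S100a8, S100a9, Retnlg and Lcn2. Wholly above lay 0, 1 (Lcn2) and 0 of the 9 genes, against 15.4%, 8.19% and 15.0%. The comparisons share libraries and are not independent of each other. In bulk tissue, fewer cells of a type and less RNA per cell cannot be told apart.

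Several other neutrophil genes had few transcripts in the tissue, and others with more counts are described below. Ly6g, the antigen by which mouse neutrophils are usually sorted, had 0 counts in sham, 2 after ligation and 0 with cells over all libraries of a group. Cebpe, the factor of secondary granule genes, had 0, 1 and 0. Elane and Ctsg, proteases of the primary granules, had at most 3 counts in any group, and Itgb2l had 0 in all 9 libraries. Prtn3, another protease of those granules, had 0 counts in sham, 17 after ligation and 7 with cells, and was called higher after ligation in the fit without the filter (adjusted p 0.00221, edgeR). Mpo, myeloperoxidase, had 0, 6 and 1 counts, and Mmp8, the neutrophil collagenase, had 16, 15 and 3. Cxcr2, the receptor by which neutrophils follow chemokines, was at 1.70 ± 0.619 CPM (SD, n = 3) in sham, 1.31 ± 0.420 after ligation and 0.326 ± 0.348 with cells. The last level rests on 7 counts in all. Cxcr2 passed the filter only through sham and ligation libraries, since no cell library had more than 5 counts. As for Retnlg, only its fall from sham to cells passed (log2 fold change -2.32, SE 0.64, adjusted p 0.00637, edgeR). Without cell replicate 2 it was -3.42, and without cell replicate 1 it was -1.76.

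In a list of 30 other neutrophil genes, 14 passed the filter. After ligation 9 of these were higher and 0 lower (median log2 fold change 0.97, against 0.01 over all genes tested), in contrast to the S100 genes. With cells against ligation 0 were higher and 9 lower (median -1.22, against 0.00), and with cells against sham 2 were higher and 6 lower (median -0.54, against -0.01). Many of these genes, Cybb and Itgb2 among them, are also expressed by monocytes and macrophages, and 8 of 11 macrophage markers rose after ligation too. The counts are thus not particular to neutrophils. Cxcr2 did not pass after ligation (log2 fold change -0.42, SE 0.51, adjusted p 0.556, edgeR). Of all genes tested, 20.1% were higher after ligation, 5.69% were lower with cells against ligation, and 21.0% were higher and 20.0% lower with cells against sham. Cybb, the catalytic subunit of the phagocyte oxidase, went from 11.6 ± 1.70 CPM in sham to 26.1 ± 2.15 after ligation and 10.3 ± 0.513 with cells (SD, n = 3). Itgb2, the beta chain of the leukocyte integrins, went from 10.2 ± 1.60 to 21.8 ± 4.81 and 7.55 ± 1.42 CPM. The largest adjusted p-value among these 4 steps was 5.29e-05 (edgeR).

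Hp, which encodes haptoglobin, rose from 9.18 ± 2.58 to 64.9 ± 4.22 CPM (SD, n = 3) after ligation and fell to 33.9 ± 1.64 with cells, with edgeR adjusted p-values of 3.84e-13 and 1.57e-06. Cyba, the other membrane subunit of the oxidase, was at 61.7 ± 4.13 CPM in sham and 61.7 ± 3.66 after ligation, and fell to 41.7 ± 1.67 with cells (adjusted p 3.61e-05, edgeR). Mmp9, the gelatinase of the tertiary granules, had 30 counts over the sham libraries, 82 after ligation and 4 with cells. Its rise after ligation passed (log2 fold change 1.29, SE 0.39, adjusted p 0.0121, edgeR), as did its fall with cells. The call after ligation was lost without sham replicate 2 (adjusted p 0.0731, edgeR) or ligation replicate 3 (adjusted p 0.0782, edgeR).

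**Figure D3:**
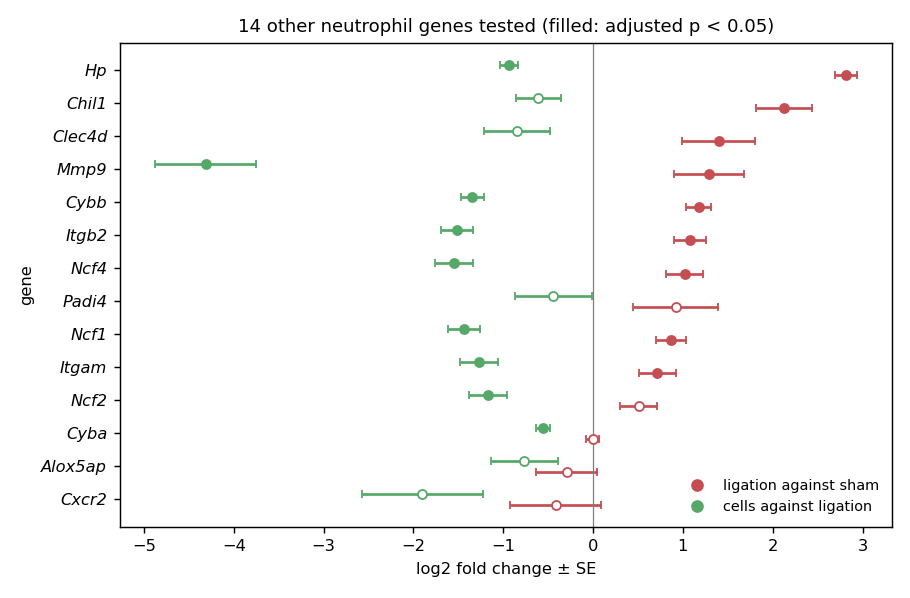
Log2 fold changes with standard errors of the 14 other neutrophil genes tested, for ligation against sham in red and cells against ligation in green; filled points have an adjusted p under 0.05 by edgeR. After ligation 9 genes lie to the right of 0 with filled points, and with cells 9 lie to the left; Cxcr2, at the bottom, has no filled point.

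A further list held factors that call neutrophils out of the marrow and into tissue. Csf3, the ligand of Csf3r, had 2 counts over the sham libraries, 1 after ligation and 0 with cells, and Il17a had 0 in all 9. Cxcl5, a neutrophil chemokine, had 7, 33 and 12 counts and was called higher after ligation in the fit without the filter (adjusted p 0.0128, edgeR), a call lost without sham replicate 3 or ligation replicate 1 or 2 (adjusted p 0.138, 0.0857 and 0.0521). Of 14 genes in this list 8 were tested. After ligation 2 were higher and 1 lower (median log2 fold change -0.08), with cells against ligation 0 were higher and 1 lower (-0.27), and with cells against sham 0 were higher and 2 lower (-0.14). Shares over all genes tested were 20.1% higher and 18.0% lower after ligation, 4.19% and 5.69% with cells against ligation, and 21.0% and 20.0% with cells against sham, so the counts after ligation were near the background. Selp, which encodes P-selectin of activated endothelium and platelets, rose from 1.66 ± 0.783 to 4.04 ± 0.786 CPM (SD, n = 3) after ligation (adjusted p 0.00614, edgeR). Its leukocyte ligand Selplg rose from 6.35 ± 1.12 to 12.2 ± 1.04 CPM and fell to 4.08 ± 1.42 with cells (edgeR adjusted p 0.00161 and 7.02e-05). Cxcl12, which retains neutrophils in the marrow, fell from 518 ± 8.19 to 340 ± 6.62 CPM after ligation (adjusted p 6.88e-10, edgeR), and was at 328 ± 8.81 CPM with cells. Sele, E-selectin, was lower with cells than in sham (1.74 ± 0.356 against 3.56 ± 0.550 CPM, adjusted p 0.0139, edgeR). That call was lost without sham replicate 2 or without cell replicate 1 or 2, with edgeR adjusted p-values of 0.0671, 0.0551 and 0.0512.

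Around Il1b, 11 of 15 interleukin-1 and inflammasome genes were tested. After ligation 4 were higher and 1 lower (median log2 fold change 0.35), with cells against ligation 0 were higher and 2 lower (-0.41), and with cells against sham 2 were higher and 2 lower (-0.06). Over all genes tested, 20.1% were higher and 18.0% lower after ligation, 5.69% lower with cells against ligation, and 21.0% higher and 20.0% lower with cells against sham. Il1rn, the natural receptor antagonist, had 4 counts over the sham libraries, 25 after ligation and 10 with cells. It was outside the filter, and without it the adjusted p after ligation was 0.0215 (edgeR), and 0.126 without sham replicate 1 and 0.268 without ligation replicate 3. Pycard, the adaptor of inflammasomes, fell from 9.89 ± 1.09 to 6.22 ± 1.22 CPM (SD, n = 3) after ligation (adjusted p 0.0186, edgeR), and was at 4.27 ± 1.14 with cells. The fall after ligation lost its call without sham replicate 2 or 3 or ligation replicate 3 (edgeR adjusted p 0.0666, 0.0517 and 0.102), and with library totals alone (0.0724). Gsdmd, the pore protein through which interleukin-1 beta leaves the cell, was at 24.9 ± 4.48 CPM in sham and 26.5 ± 1.04 after ligation and fell to 17.1 ± 1.32 with cells (adjusted p 0.00213, edgeR). Il18r1 rose from 0.515 ± 0.482 to 2.07 ± 0.614 CPM after ligation (log2 fold change 1.96, adjusted p 0.00655, edgeR), and by 2.96 without sham replicate 1, which held most of the sham counts. Il6 rose from 2 counts over the sham libraries to 39 (adjusted p 0.000105, edgeR) and had 16 with cells. Its sham total is under the floor of 3 counts. Il6, 1 of the 4 genes higher after ligation, passed the filter only through ligation libraries, as no other library had more than 6 counts.

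Of 10 receptors and partners of the encoded proteins 8 were tested. After ligation 5 were higher and 1 lower (median log2 fold change 0.61), and with cells against ligation 1 was higher and 1 lower (-0.25). Against sham the cell group had 3 higher and 2 lower (0.15). The shares over all genes were 20.1% and 18.0%, 4.19% and 5.69%, and 21.0% and 20.0% in these comparisons. Cd14, the co-receptor of Toll-like receptor 4, rose from 16.3 ± 2.73 to 33.8 ± 2.77 CPM (SD, n = 3) after ligation and fell to 17.2 ± 0.835 with cells (edgeR adjusted p 6.17e-07 and 8.00e-06). Lrp2, the endocytic receptor megalin, which takes up lipocalin 2 in the kidney, rose from 0.676 ± 0.370 to 7.24 ± 1.11 CPM after ligation (adjusted p 1.48e-07, edgeR) and was at 4.66 ± 0.376 with cells. Lrp1, a lactoferrin receptor, rose from 261 ± 11.8 to 424 ± 31.3 CPM (adjusted p 2.89e-09, edgeR) and was at 378 ± 15.1 with cells. Cd36, a fatty acid transporter that binds the S100a8 and S100a9 complex with arachidonic acid, fell from 1957 ± 92.8 to 1297 ± 71.5 CPM and rose to 1590 ± 38.8 with cells (edgeR adjusted p 7.09e-10 and 7.97e-05).

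Markers of other cell types moved with the groups as well. Their counts are to be read against all genes tested, of which 20.1% were higher and 18.0% lower after ligation, and 4.19% higher and 5.69% lower with cells against ligation. Summed macrophage markers were at 818 to 874 CPM in sham, 1366 to 1397 after ligation and 559 to 576 with cells. Of 11 tested, 8 rose and 1 fell after ligation, and 11 of 11 fell with cells against ligation. Monocyte markers were at 216 to 230, 395 to 425 and 414 to 422 CPM. Fn1, fibronectin, which fibroblasts also make, carried the rise of that sum, at 87.9, 275 and 297 CPM, and Nr4a1, a nuclear receptor also induced in other cells, went from 12.0 to 26.7 and 68.8 CPM. Of the 8 markers 5 were higher and 2 lower after ligation, and 1 was higher and 3 lower with cells against ligation (median log2 fold change -0.80). Ccr2, the chemokine receptor of inflammatory monocytes, went from 4.31 to 15.0 and 3.76 CPM, while F13a1 went from 104 to 80.0 and 40.0 CPM, in the order of groups seen for S100a8. In cells against ligation the macrophage markers were lower, as S100a9 and Csf3r were, and their part in those results was not tested.

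Erythroid markers were at 870 to 917 CPM in sham, 1496 to 1595 after ligation and 661 to 679 with cells. Of 6 tested 5 were higher and 1 lower after ligation; the lower one was Hba-a2, at 7.52, 0.209 and 0.144 CPM, a near-identical copy of Hba-a1 (488, 871 and 371 CPM), so the split of reads between them is uncertain. With cells against ligation 0 were higher and 5 lower (median log2 fold change -1.18), as S100a9 and Csf3r were. Platelet markers were at 34.4 to 37.1, 24.0 to 28.3 and 12.2 to 16.3 CPM. That order is set by Pf4, platelet factor 4, at 32.4, 20.2 and 9.69 CPM; the other 5 platelet genes summed to 2.79 to 4.62 CPM in sham, 5.05 to 7.23 after ligation and 3.40 to 6.09 with cells. Mast cell and eosinophil markers were at 16.3 to 17.4, 11.2 to 12.8 and 8.72 to 11.5 CPM, again highest in sham, with Ms4a2 and Epx at 2 counts or fewer in every group. Lymphocyte markers were at 4.33 CPM or less in every library, with Ms4a1 at 0 counts in all 9. Fibroblast markers were at 1808 to 1856 CPM in sham, 3032 to 3089 after ligation and 2938 to 3011 with cells, with 5 of 6 higher and 1 lower after ligation. Endothelial markers were at 1709 to 1807, 1137 to 1210 and 1253 to 1285 CPM, with 5 of 5 lower after ligation, as S100a8 and S100a9 were. Cardiomyocyte markers were at 45496 to 46919 CPM in sham, 34757 to 36532 after ligation and 33956 to 34782 with cells. Of 7 tested 1 was higher and 5 were lower after ligation, so the sum does not stand for every marker. The part of these shifts in the levels of the 9 genes was not tested.

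**Figure D4:**
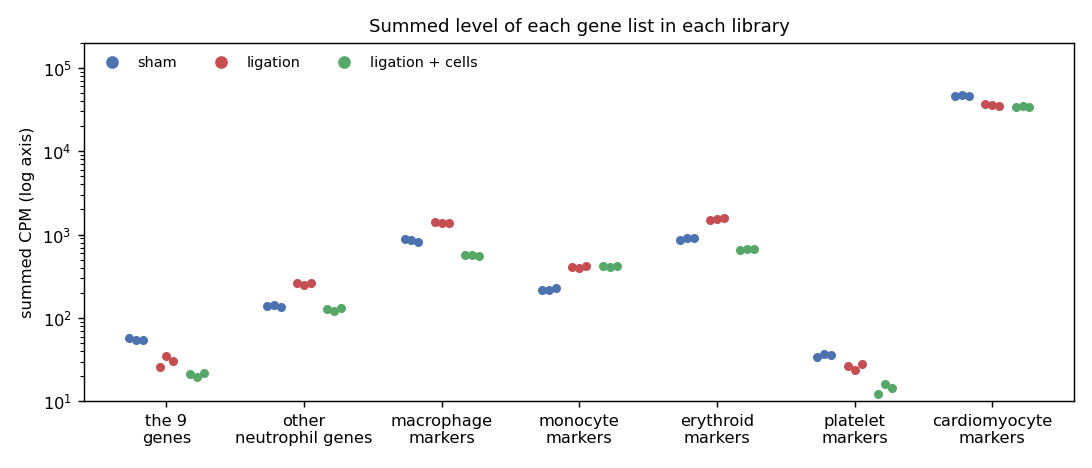
Summed CPM (log axis) of the 9 genes and of 6 marker lists in each library, with sham in blue, ligation in red and ligation plus cells in green. The 9 genes run from 54.6 to 57.7 CPM in sham to 19.6 to 22.1 with cells. Most of the cell sum is Lcn2, and the other 8 genes are at 38.8 to 47.0 CPM in sham and 6.23 to 7.07 with cells. Macrophage and erythroid markers are highest after ligation, and the platelet sum, most of it Pf4, is highest in sham.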

How the data were processed

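RNA-seq libraries of 9 heart samples were analysed, 3 per group, with groups and replicate numbers taken from the sample titles. Per the labels' protocols, TRIzol was used to extract RNA and a NEBNext Ultra RNA kit to build libraries. The authors deposited unnormalized counts of reads for each gene, as whole numbers. The aligner, counter, strand setting and annotation release are not given in the sources used here, and the build is mm10 per the submitters' processing notes. The closing lines of each file, which name no gene, held 12.3% to 13.6% of counted reads and were left out. Symbols were attached to 53274 of 53465 identifiers.

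Counts were fitted in R 4.3.3 with edgeR 4.0.16 (filterByExpr, TMM, estimateDisp, glmQLFit, glmQLFTest) in 1 model with a mean per group, 6 residual degrees of freedom and two-sided tests. P-values were adjusted by the Benjamini-Hochberg method over the 13825 genes tested, or 25606 with no filter on low counts. A gene passes, rises or falls at an adjusted p under 0.05. SE is the fold change divided by the square root of F. Intervals (95%, exact, from pooled counts) and floors reflect counting error alone: the labels name no molecular identifiers, and PCR copies of a molecule would be counted separately. Same-numbered libraries were not paired. The fit was tested on simulated data.

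The 9 genes, the lists and the tests were chosen with earlier results of these data known. Named from each list were at most 4 genes with the smallest adjusted p in any comparison among those past 0.05, plus Csf3, Cxcr2, Mmp9, Ly6g, Il1rn and Cebpe. Other genes at or near 0 counts (Elane, Ctsg, Itgb2l, Il17a, Ms4a2, Epx, Ms4a1), Cxcl5, Nr4a1, Hba-a1, Hba-a2, Prtn3, Mpo, Mmp8, Fn1, Ccr2, F13a1 and Pf4 were named after their values were seen. Alternatives covered scaling, filters, DESeq2 1.42.0, fits of 2 groups, removal of mitochondrially encoded genes, the replicate number as a block, each library left out, and summing libraries by header stem, which was added after seeing the files. Figures were drawn with matplotlib 3.10.9.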

Additional observations from a re-analysis of the deposited data

How the results depend on the processing

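Depth limits Retnlg, Ngp, Camp, Ltf and Il1b, which had at most 15 counts in any library. In 18 alternatives the number of the 9 genes called was 2 or 3 for ligation against sham, 2 or 3 for cells against ligation and 3 to 5 for cells against sham. The 5 came with no filter on low counts, which lets the fit test all 9 genes and adds Retnlg and Ngp. Leaving out single libraries gave 2, 2 to 3 and 3 to 4 genes. With the replicate number as a block 2, 2 and 3 genes were called, S100a8 in cells against ligation being lost (log2 fold change -0.97, adjusted p 0.0605, edgeR). Deviations of same-numbered libraries correlated between -0.125 and 0.143 across 9400 genes, which are not independent replicates. Differently numbered libraries were not correlated for reference, so these values cannot decide whether the numbers pair the samples. The S100a8 call in cells against ligation was also lost with DESeq2, with fits of 2 groups and with libraries summed by header stem (chosen after seeing the files). The same call was lost without sham replicate 1 or 3, ligation replicate 2 or 3, or cell replicate 2 or 3.

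Among the fold changes of the 9 genes, signs changed only where no test passed. With library totals alone Il1b and Lcn2 in ligation against sham became 0.032 and 0.0391, and with the block Ltf in cells against ligation became 0.0307. Without single libraries, Il1b in ligation against sham ranged from -0.765 to 0.177 and Lcn2 in cells against sham from -0.0963 to 0.187. In cells against ligation Ltf ranged from -1.85 to 1.77 and Ngp from -2.46 to 0. The cause of these changes was not tested. Of 58 calls of named genes outside the 9, 51 held in all alternatives run; the exceptions were Il1rn, Mmp9, Pycard and Cxcl5 after ligation and Il6, Sele and Mmp8 in cells against sham. Il1rn was lost also with DESeq2, the block and summed libraries, and Il6 with DESeq2 and without sham replicate 3, and Cxcl5 also with DESeq2. Among the other lists, counts of genes called moved by over 1.5 times for the interleukin-1 and inflammasome genes (5 after ligation, range 3 to 8; 2 for cells against ligation, range 1 to 2), the other neutrophil genes (8 for cells against sham, range 5 to 10) and the recruiting factors (2 for cells against sham, range 1 to 4). Of the marker lists, mast cell and eosinophil markers called after ligation ranged from 0 to 2 against 2, and in cells against sham from 1 to 3 against 2. In cells against ligation, cardiomyocyte markers called ranged from 0 to 4 against 2 and fibroblast markers from 1 to 2 against 1.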
